A study of Mus musculus with 48 samples.

Results

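The respiratory chain of the inner mitochondrial membrane was examined here through its subunits encoded in the nucleus. Members were chosen by symbol: Nduf followed by a, b, c, s or v and a digit (complex I), Sdha to Sdhd (complex II), Cyc1 and the Uqcr genes (complex III), Cox4 to Cox8 followed by a, b or c (complex IV), and the Atp5 genes (complex V), without pseudogenes and present in both bulk RNA tables. This gave 83 genes of 34476 named in both tables, with 37 in complex I, 4 in complex II, 9 in complex III, 16 in complex IV and 17 in complex V. Several symbols need a remark. Cox4i1 and Ndufab1 are subunits that the symbol rule misses. Atp5s and Atp5sl meet it, although their current names, Dmac2l and Dmac2, do not place them among the subunits of the ATP synthase. Ndufa4 carries a complex I name but is now regarded as bound to complex IV.

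Complexes I and II pass electrons from NADH and from succinate to ubiquinone, complex III passes them on to cytochrome c, and complex IV hands them to oxygen. Complexes I, III and IV pump protons, and complex V, the ATP synthase, uses the resulting gradient to make ATP. Most subunits are encoded in the nucleus, and a small core of complexes I, III, IV and V is encoded in mitochondrial DNA. T cells that leave the resting state are known to enlarge their mitochondrial mass, and invariant natural killer T (iNKT) cells, lymphocytes with a semi-invariant receptor for lipid antigens, are sorted by transcription factors and cytokines into iNKT1, iNKT2 and iNKT17 cells.

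All cells came from FVB/N mice. Conventional T cells (CD4 and CD8, from spleen and peripheral lymph nodes) were measured on day 7 after transfer into BALB/c hosts, a major mismatch model of graft-versus-host disease, with iNKT1, iNKT2 or iNKT17 cells given as treatment or with no treatment, and on day 0 before transplantation. Each of these 5 groups had 3 CD4 and 3 CD8 libraries. Thymic iNKT17, iNKT2 and iNKT1 cells had 2 bulk RNA and 2 ATAC libraries each, where ATAC counts reads from DNA that a transposase can reach, and total thymic iNKT cells of 2 mice, 8 weeks old, were measured as single cells. Nothing in the labels says that replicate libraries came from separate animals, so p-values measure the spread between libraries, which may be technical. Titles of the donor T cell samples name 2 experiments in each group. The count columns do not carry them, so the spread may include an unmodelled difference between experiments.

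Total counts were 25323879 to 37055182 per CD4 library, 26134241 to 33658426 per CD8 library, 26811373 to 33688697 per iNKT RNA library and 13299586 to 42964216 per ATAC library. The biological coefficient of variation over all genes was 0.288 in CD4, 0.196 in CD8 and 1.3 in iNKT RNA, so single genes were far less precise in the iNKT table. Each 10-gene iNKT marker list was highest in the sublineage it names. Summed markers of iNKT17 cells were 6407 to 7412 CPM (counts scaled to the library total, as set by edgeR) in iNKT17, against 10.7 to 37.8 CPM in iNKT2 and 7.92 to 11.2 CPM in iNKT1. Markers of iNKT2 cells were also high in iNKT17, with 2125 to 2380 CPM in iNKT17, 3113 to 3631 CPM in iNKT2 and 232.7 to 308.3 CPM in iNKT1, and those of iNKT1 cells stood at 769.5 to 786.8 CPM in iNKT17, 211.2 to 238.4 CPM in iNKT2 and 4617 to 4763 CPM in iNKT1. The CD4 day 0 library numbered 3 in its column header stood apart from its group, in the respiratory chain members and across genes in general. Its Spearman correlation over genes with counts was 0.951 with library 1 and 0.948 with library 2, against 0.988 between those 2. The CD4 day 7 results are given with and without library 3. Summed markers of B and plasma cells, of erythroid cells and platelets and of myeloid cells were lower at day 7 in both lineages. Those that passed the test as lower numbered 8 of 8 in CD8 and 7 of 8 in CD4 for B and plasma cells, 4 of 8 and 6 of 8 for erythroid cells and platelets, and 6 of 11 gene IDs in each for myeloid cells, of which 4 in CD8 and 3 in CD4 were higher. The 8 B and plasma cell markers summed to 8.54 to 10.9 CPM in untreated CD8 day 7 libraries and 175.5 to 645 CPM at day 0, and to 3.67 to 6.53 CPM in untreated CD4 day 7 libraries and 447.9 to 510.8 CPM at day 0. Erythroid and platelet markers summed to 10.2 to 32.5 CPM in CD8 at day 7 and 436.3 to 564.3 CPM at day 0, and to 12.1 to 28.5 CPM in CD4 at day 7 and 2372 to 6763 CPM at day 0. Myeloid markers summed to 154.3 to 300.7 CPM in CD8 at day 7 and 425.1 to 1454 CPM at day 0, and to 191.8 to 217.3 CPM in CD4 at day 7 and 741.6 to 796.6 CPM at day 0. Their part in the results below was not tested. In bulk samples, fewer cells of a type and less RNA per cell cannot be told apart.

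The change of the respiratory chain in donor CD8 T cells by day 7 was broad. Of 78 members with enough counts to be tested, 67 were higher in untreated GvHD cells at day 7 than before transplantation, 1 was lower and 10 did not pass the test (edgeR's quasi-likelihood test, Benjamini-Hochberg adjusted p under 0.05). Among all 14586 genes tested, 30.9% were higher and 29.8% lower. The median log2 fold change was 0.76 over the members and -0.05 over all genes. The higher members were 30 of 36 tested in complex I (median 0.68), 3 of 4 in complex II (median 0.67), 9 of 9 in complex III (median 0.80), 10 of 12 in complex IV (median 0.95) and 15 of 17 in complex V (median 0.74). Ndufa4l2, Cox6a2, Cox7b2, Cox8b and Cox8c had too few counts to be tested in CD8 cells. Scaling set the size of this change: with library totals in place of trimmed-mean factors, a setting chosen after seeing the data, the median of all genes moved to -0.25 and that of the members to 0.56, and 60 members were higher and 4 lower, among them Sdha, Cox7a2l and Ndufa3.

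Summed over each complex, complex I stood at 5187, 4131 and 4202 CPM in the untreated CD8 day 7 libraries and at 2468, 3071 and 2468 CPM at day 0. Complex IV stood at 2337, 2118 and 1913 CPM in untreated libraries and at 1104, 1288 and 1079 CPM at day 0. The groups did not overlap for either complex. Mean sums were 1275 ± 139 CPM in untreated cells and 891 ± 70.9 CPM at day 0 for complex II (SD, n = 3 each). For complex III they were 1659 ± 182 CPM in untreated cells and 1002 ± 93.1 CPM at day 0 (SD, n = 3 each). For complex V they were 5228 ± 369 CPM in untreated cells and 3317 ± 170 CPM at day 0 (SD, n = 3 each). The log2 ratio of the mean sums was largest for complex IV (0.88) and smallest for complex II (0.51), with 0.76 for complex I, 0.73 for complex III and 0.66 for complex V.

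**Figure D1:**
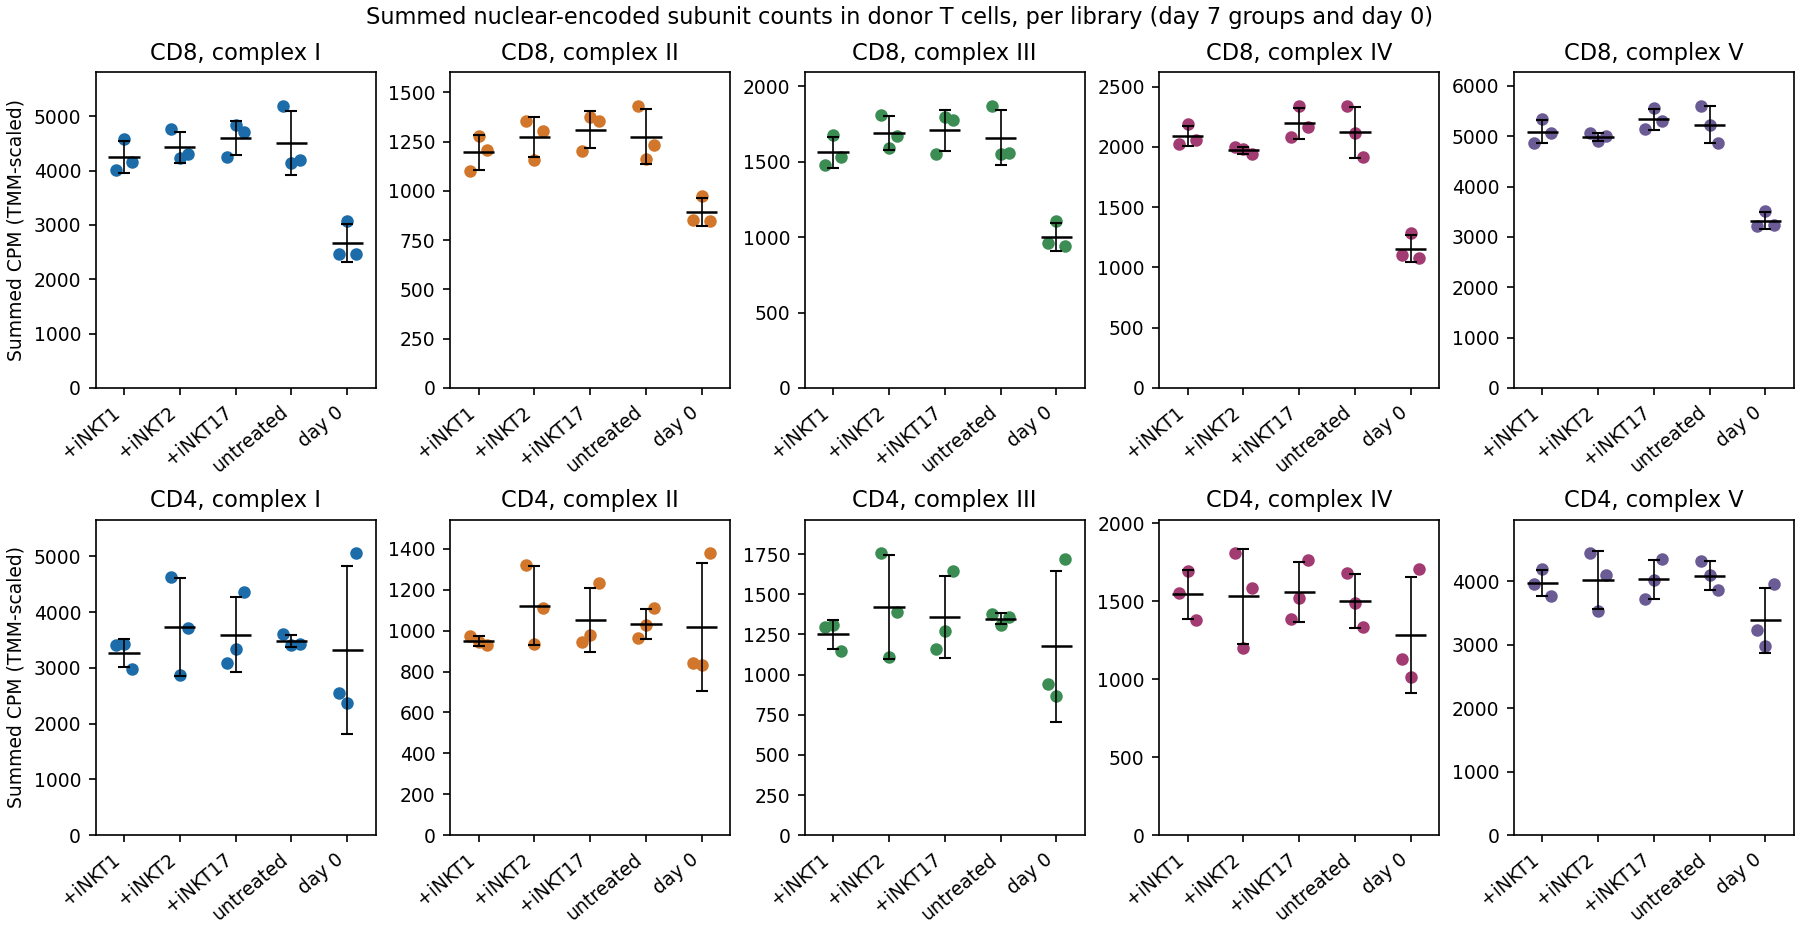
Summed CPM of the members of each complex (columns) in CD8 and CD4 donor T cells (rows), one point per library, with the group mean and SD (n = 3). In CD8 cells every day 7 library lies above every day 0 library in each complex, while 1 CD4 day 0 library, at 5057 CPM in complex I, lies above all CD4 day 7 libraries there.

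In complex I, members of both the membrane arm and the matrix arm rose. Ndufb7, an accessory subunit of the membrane arm, had 293, 213 and 228 CPM in untreated CD8 cells at day 7 and 81.9, 118 and 85.2 CPM at day 0, a log2 fold change of 1.37 (SE 0.16, adjusted p = 3.6e-06). Its lowest day 7 library lay well above its highest day 0 library. Ndufv1, the flavoprotein that takes electrons from NADH, had 202, 165 and 190 CPM in untreated cells and 111, 123 and 110 CPM at day 0, a log2 fold change of 0.69 (SE 0.09, adjusted p = 1.05e-05). Ndufs1, the large iron-sulphur subunit, moved less, with 199.6, 159 and 181 CPM in untreated cells against 131, 147 and 143 CPM at day 0 and a log2 fold change of 0.36 (SE 0.11, adjusted p = 0.00852). With library totals its call was lost, at 0.16 (adjusted p = 0.134). Ndufa4 had a log2 fold change of 0.76 (SE 0.14, adjusted p = 0.000265). The complex I members that did not pass the test were Ndufa3, Ndufa6, Ndufa7, Ndufs3, Ndufs7 and Ndufs8.

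Complex II did not move as a block. Sdha, the flavoprotein that oxidises succinate and the catalytic subunit of the complex, had 471, 419 and 446 CPM in untreated CD8 cells at day 7 and 426, 457 and 444 CPM at day 0. The groups overlapped, and the log2 fold change was 0.01 (SE 0.08, adjusted p = 0.922). Its partner Sdhb, the iron-sulphur subunit, had 453, 357 and 363 CPM in untreated cells and 204, 247 and 202 CPM at day 0, without overlap, a log2 fold change of 0.85 (SE 0.14, adjusted p = 8.68e-05). Sdhd, a membrane anchor, had 386, 283 and 308 CPM in untreated cells and 143, 176 and 133 CPM at day 0, a log2 fold change of 1.11 (SE 0.14, adjusted p = 5.51e-06). Sdhc, the other anchor, rose by less, with a log2 fold change of 0.49 (SE 0.11, adjusted p = 0.00119). The anchors and the iron-sulphur subunit were thus higher at day 7, while the flavoprotein did not pass the test with trimmed-mean factors and was called lower with library totals, at -0.19 (adjusted p = 0.0304).

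In complex III all 9 members rose with trimmed-mean factors, by log2 fold changes of 0.27 to 1.04. Uqcr10, a small subunit, had 188, 163 and 159 CPM in untreated CD8 cells at day 7 and 71.4, 102 and 75.1 CPM at day 0, the upper end of that range (SE 0.13, adjusted p = 6.34e-06). Uqcrfs1, the Rieske iron-sulphur protein, had 194, 161 and 162 CPM in untreated cells and 102, 113 and 100.4 CPM at day 0, a log2 fold change of 0.71 (SE 0.10, adjusted p = 1.62e-05). Both separated the days in every library. Uqcrc1, a core protein of the complex, rose by 0.89 (SE 0.14, adjusted p = 4.46e-05). Cyc1, cytochrome c1, formed the lower end of the range at 0.27 (SE 0.10, adjusted p = 0.023). Its call was lost without untreated library 1, where the log2 fold change was 0.19, or without day 0 library 3, where it was 0.23, and with library totals, where it was 0.07 (adjusted p = 0.438).

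In complex IV, 10 of 12 tested members rose, from widely expressed subunits to a muscle isoform at low level. Cox5a, a subunit on the matrix side, had 297, 272 and 253 CPM in untreated CD8 cells at day 7 and 108, 128 and 98.9 CPM at day 0, a log2 fold change of 1.30 (SE 0.10, adjusted p = 2.46e-08). Cox6b1, which faces the intermembrane space, had 324, 286 and 266 CPM in untreated cells and 121, 142 and 120.0 CPM at day 0, a log2 fold change of 1.19 (SE 0.10, adjusted p = 6.15e-08). Neither gene overlapped between the days. Cox5b, which binds zinc, rose by 1.06, and Cox6a1, Cox7a2 and Cox8a, the widely expressed isoforms of their subunits, rose by 0.66, 0.69 and 0.73. Cox7a1, the isoform typical of heart and skeletal muscle, had only 1.32, 0.868 and 0.577 CPM in untreated cells and 0.144, 0.280 and 0.113 CPM at day 0, a log2 fold change of 2.36 (SE 0.46, adjusted p = 0.000409). Of 8 muscle markers 3 had enough counts to be tested and 2 of these rose, and the list summed to 2.39 to 2.64 CPM in untreated cells and 1.31 to 1.38 CPM at day 0. Its part in the Cox7a1 result was not tested. Cox7a2l, which links complexes III and IV in supercomplexes, had 116, 107 and 102 CPM in untreated cells and 110, 115 and 108 CPM at day 0. It overlapped between the days, with a log2 fold change of -0.04 (SE 0.09, adjusted p = 0.727).

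In complex V, members of the catalytic head, the stalk and the rotor rose. Atp5b, the catalytic beta subunit, had 1553, 1550 and 1429 CPM in untreated CD8 cells at day 7 and 1145, 1161 and 1153 CPM at day 0, a log2 fold change of 0.39 (SE 0.08, adjusted p = 0.000418). Atp5a1, the alpha subunit, had 646, 597 and 593 CPM in untreated cells and 376, 397 and 374 CPM at day 0, a log2 fold change of 0.68 (SE 0.08, adjusted p = 1.95e-06). Atp5j, coupling factor 6 of the peripheral stalk, had 415, 310 and 290 CPM in untreated cells and 128, 163 and 136 CPM at day 0, a log2 fold change of 1.25 (SE 0.13, adjusted p = 1.17e-06). None of the 3 genes overlapped between the days. The genes that encode the c subunit of the membrane rotor rose by log2 fold changes of 0.35 for Atp5g1, 0.74 for Atp5g2 and 0.93 for Atp5g3. The Atp5g1 call was lost with library totals, at 0.16 (adjusted p = 0.112). Atp5sl was the member that fell, with 35.2, 37.9 and 40.04 CPM in untreated cells against 55.2, 56.7 and 44.8 CPM at day 0 and a log2 fold change of -0.47 (SE 0.10, adjusted p = 0.00101). As Dmac2 it is described in human cells as an assembly factor for the membrane arm of complex I. Atp5s, the other gene outside the enzyme, did not pass the test at 0.05 (SE 0.23, adjusted p = 0.849).

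**Figure D2:**
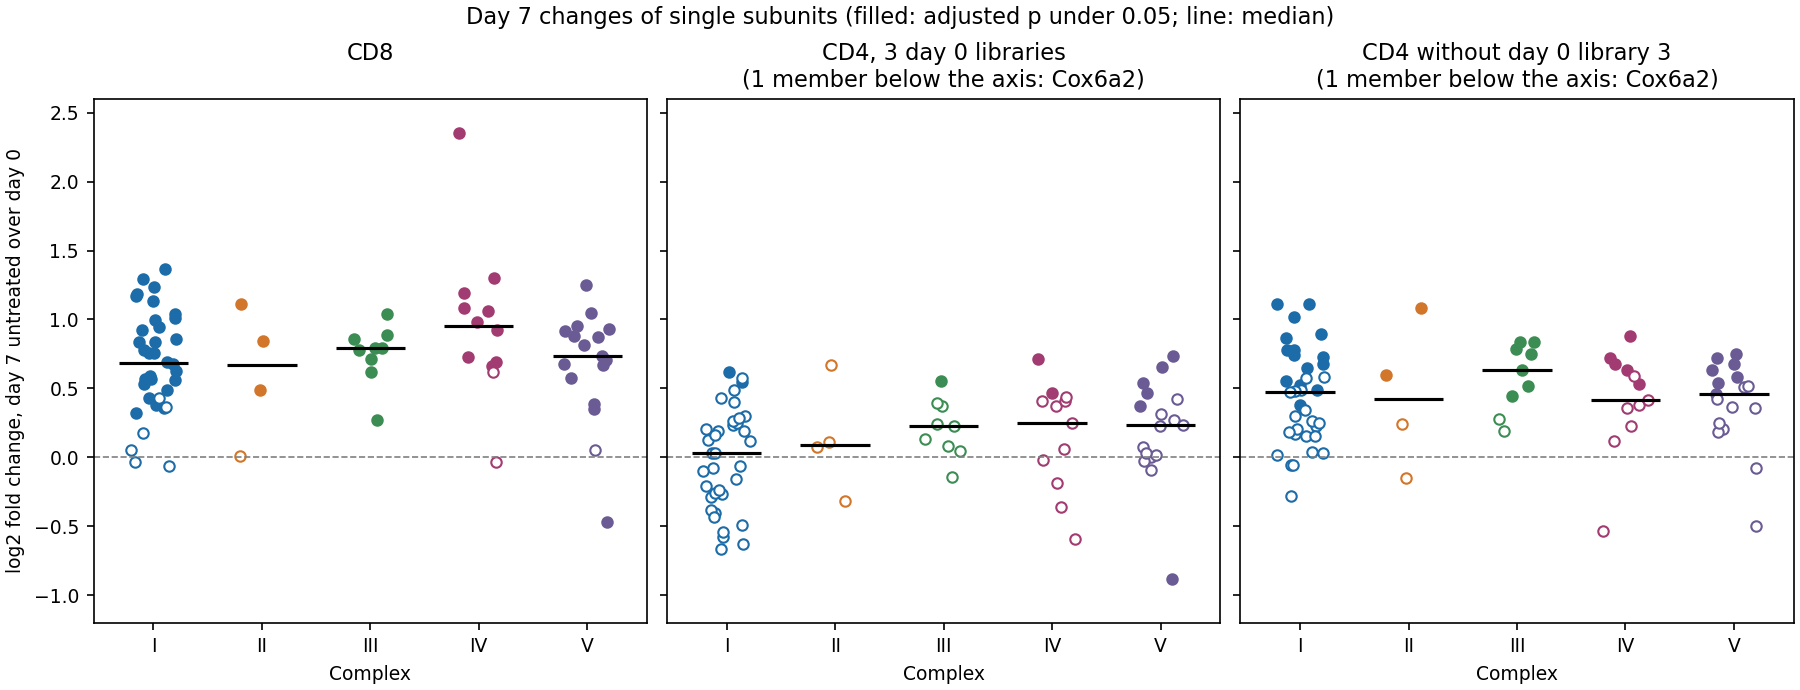
Log2 fold change, untreated day 7 over day 0, of each tested member (points) by complex, in CD8 cells, in CD4 cells and in CD4 cells without day 0 library 3, with filled points past the adjusted p threshold of 0.05 and the group median as a line. The CD8 medians lie between 0.67 and 0.95 in the 5 complexes and the CD4 medians with all libraries between 0.03 and 0.25, with Cox6a2 below the axis in both CD4 panels.

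The other genes of the pathway in CD8 cells were read from lists, by the same test. Their counts stand beside 30.9% of all genes higher and 29.8% lower. Of the subunits that the symbol rule misses, 5 of 6 tested rose and none fell, among them Cox4i1, the widely expressed complex IV subunit 4 (0.96, SE 0.10, adjusted p = 6.26e-07), and Atpif1, an inhibitor of ATP hydrolysis by complex V (1.51, SE 0.15, adjusted p = 6.84e-07). The 13 subunits encoded in mitochondrial DNA did not go with them: none rose, mt-Nd2 fell by 0.96 on the log2 scale (SE 0.24, adjusted p = 0.00295), and the median was -0.31. Their summed level was 4095 to 6634 CPM in untreated cells and 5261 to 6775 CPM at day 0, with overlap. Of 46 assembly factors tested 19 rose and 6 fell (median 0.22). Cox17, a copper chaperone for complex IV, rose by 1.59 (SE 0.16, adjusted p = 4.99e-07), while Ndufaf4, a complex I assembly factor, fell by 0.91 on the log2 scale (SE 0.11, adjusted p = 3.5e-06). Of 77 mitochondrial ribosomal proteins 47 rose and 4 fell (median 0.43), whereas 14 of 85 tested cytosolic ribosomal proteins rose and 15 fell. Of 18 tested regulators of mitochondrial biogenesis 3 rose and 4 fell. Tfam, which packages mitochondrial DNA, rose by 0.61 (SE 0.10, adjusted p = 6e-05). Ppargc1b, a coactivator of mitochondrial genes, fell by 2.61 on the log2 scale (SE 0.19, adjusted p = 2.39e-08).

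Promoter windows of the members, 250 bases before to 50 bases after each start in RefSeq on GRCm38.p6, were found for 69 of the 83 members and searched on both strands for the cores of 3 motifs linked to genes of the respiratory chain. A gene was counted once if any of its windows held the core. The NRF1 core GCGCATGCG was found at 8 of the 69 members (11.6%), against 1.95% of all 27025 genes with a window. The YY1 core AAGATGGCG was found at 8 members (11.6%), against 1.64% of all genes with a window. The ETS core CCGGAAGT was found at 5 members (7.25%), against 4.31% of those genes. Any of the 3 was found at 20 members (29%) and at 7.48% of all genes with a window. The 27025 genes were taken whether or not they had counts in these cells. An excess over them is therefore not shown to be particular to the respiratory chain. A match is a run of letters and not a shown binding site. All 8 members with the NRF1 core rose in CD8 cells at day 7, as did 56 of the 67 tested members with a window, so nothing is read from that count. Their matches are shown as the letters found, with the core in capitals and up to 10 bases on each side, read 5′ to 3′ on the strand of the gene. The core stands in either orientation.
Atp5g2, chr15:102671071-102671099, minus strand: ggctccggccGCGCATGCGcagagccttc
Atp5k, chr5:108434431-108434459, minus strand: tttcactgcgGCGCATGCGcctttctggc
Atp5l, chr9:44920965-44920992, minus strand: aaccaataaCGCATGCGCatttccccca
Cox6a1, chr5:115349102-115349130, minus strand: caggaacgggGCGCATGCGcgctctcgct
Ndufa11, chr17:56717692-56717720, plus strand: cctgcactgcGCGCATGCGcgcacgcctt
Ndufa8, chr2:36049329-36049357, minus strand: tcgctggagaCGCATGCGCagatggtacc
Uqcr11, chr10:80406808-80406836, minus strand: atcgccttcaCGCATGCGCtatacgtctg
Uqcrc1, chr9:108936668-108936696, plus strand: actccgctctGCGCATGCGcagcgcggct

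The 8 members with the YY1 core differed among themselves in CD8 cells: 6 rose, Ndufs7 did not pass the test and Atp5sl fell. In 7 of the 8 the core lay after the start. The windows of Ndufs4 and Atp5j, which rose by log2 fold changes of 1.19 and 1.25, are set here beside those of Ndufs7 and Atp5sl, at -0.03 and -0.47, with the core again in capitals.
Ndufs4, chr13:114388045-114388069, minus strand: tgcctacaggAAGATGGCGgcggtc
Atp5j, chr16:84835046-84835074, minus strand: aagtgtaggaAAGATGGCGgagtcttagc
Ndufs7, chr10:80249463-80249491, plus strand: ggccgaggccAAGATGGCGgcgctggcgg
Atp5sl, chr7:25619430-25619458, plus strand: gttacctggcAAGATGGCGgcgcccagag
The same core thus stood in promoters of genes that rose, fell or did not pass the test.

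In CD4 cells fewer members passed the test of untreated day 7 over day 0. Of 79 tested, 10 were higher and 2 lower, beside 17.4% of all 15031 genes higher and 18.2% lower, so the share of higher members (12.7%) was below that of all genes. The median log2 fold change was 0.13 over the members and -0.08 over all genes. The higher members included Ndufs4 in complex I, Uqcrfs1 in complex III, Cox5a and Cox8a in complex IV, and Atp5a1, Atp5c1, Atp5d, Atp5g2 and Atp5g3 in complex V. The 10 higher members were ones that CD4 day 0 library 3 raised less. Its ratio to the mean of the other day 0 libraries was 0.57 to 1.61 among them, against a median of 1.79 over the 79 tested. Their spread over the complexes is therefore not read. The Atp5g2 call was lost without day 0 library 3, at 0.52 (adjusted p = 0.0788), and with library totals, at 0.60 (adjusted p = 0.102), and that of Cox8a with library totals, at 0.36 (adjusted p = 0.0529). Cox5a had 194, 179.6 and 159 CPM in untreated CD4 cells at day 7 and 101.5, 92.9 and 131 CPM at day 0, a log2 fold change of 0.71 (SE 0.17, adjusted p = 0.00502). Atp5g3 had 274, 245 and 199 CPM in untreated cells and 159.5, 141 and 154 CPM at day 0, a log2 fold change of 0.66 (SE 0.14, adjusted p = 0.0018). Neither overlapped between the days, and without CD4 day 0 library 3 the log2 fold changes were 0.88 (adjusted p = 0.00103) and 0.68 (adjusted p = 0.00259). Without that library a total of 37 members passed the test. The total was 6 without day 0 library 1, 7 without day 0 library 2 and 7 without untreated library 1, against 12 with all libraries.

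The CD4 day 0 libraries differed among themselves. Summed complex I stood at 3606, 3410 and 3423 CPM in untreated CD4 cells at day 7 and at 2548, 2372 and 5057 CPM at day 0, so that the third day 0 library lay above and the other two below all untreated libraries. In that library the ratio to the mean of the other day 0 libraries had a median of 1.79 over the 79 tested members and 0.96 over all genes tested, and 55 members lay over 1.5 times and 4 below 1. Ndufb7 shows the pattern, with 186, 173 and 187 CPM in untreated cells against 88.0, 81.4 and 236 CPM at day 0. Atp5b did not share it, with 1198, 1188 and 1171 CPM in untreated cells against 1056, 1008 and 977 CPM at day 0. Mitochondrial ribosomal proteins were also higher in the third day 0 library (5750 CPM summed, against 3240 and 3014 CPM in the other two), while subunits encoded in mitochondrial DNA were lower (4018 CPM, against 6744 and 6306 CPM). The 8 genes of T cell identity summed to 10780 CPM in it, against 6292 and 6174 CPM. Cd4, the coreceptor that names the lineage, was lower there, at 416.2 CPM against 902.9 and 931.0 CPM, and Cd8a, the coreceptor of the other lineage, was at 7.74 CPM against 3.65 and 3.34 CPM. The part of these differences in the CD4 result was not tested. Which of the 2 experiments each CD4 day 0 library came from is not given by its column.

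Without that library, 36 CD4 members were higher and 1 lower, beside 20.5% of all 15467 genes higher, and the median log2 fold change was 0.48. The library was singled out on the members' own high values at day 0. Leaving it out therefore raises their change by construction, and the added calls are no separate support for a rise. The higher members were 15 of 36 in complex I, 2 of 4 in complex II, 7 of 9 in complex III, 5 of 13 in complex IV and 7 of 17 in complex V. Ndufb7 then had a log2 fold change of 1.11 (SE 0.27, adjusted p = 0.00508) and Sdhd 1.08 (SE 0.19, adjusted p = 0.000662). With all 3 day 0 libraries they stood at 0.43 (SE 0.36, adjusted p = 0.39) and 0.67 (SE 0.25, adjusted p = 0.0523). Sdhb went with them, at 0.60 without the library (SE 0.23, adjusted p = 0.0496) and 0.08 with it (SE 0.30, adjusted p = 0.87). Uqcrc1 stood at 0.84 without the library (SE 0.23, adjusted p = 0.0118) and 0.22 with it (SE 0.33, adjusted p = 0.634). Cox5b stood at 0.72 without it (SE 0.17, adjusted p = 0.00452) and 0.41 with it (SE 0.21, adjusted p = 0.147). Sdha at -0.15 and Cox7a2l at 0.12 did not pass the test without the library either, although with all libraries and library totals Sdha was called lower, at -0.42 (adjusted p = 0.00746), and Atp5b had 0.21 without it (SE 0.09, adjusted p = 0.0949) and 0.23 with it (SE 0.09, adjusted p = 0.0774).

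**Figure D3:**
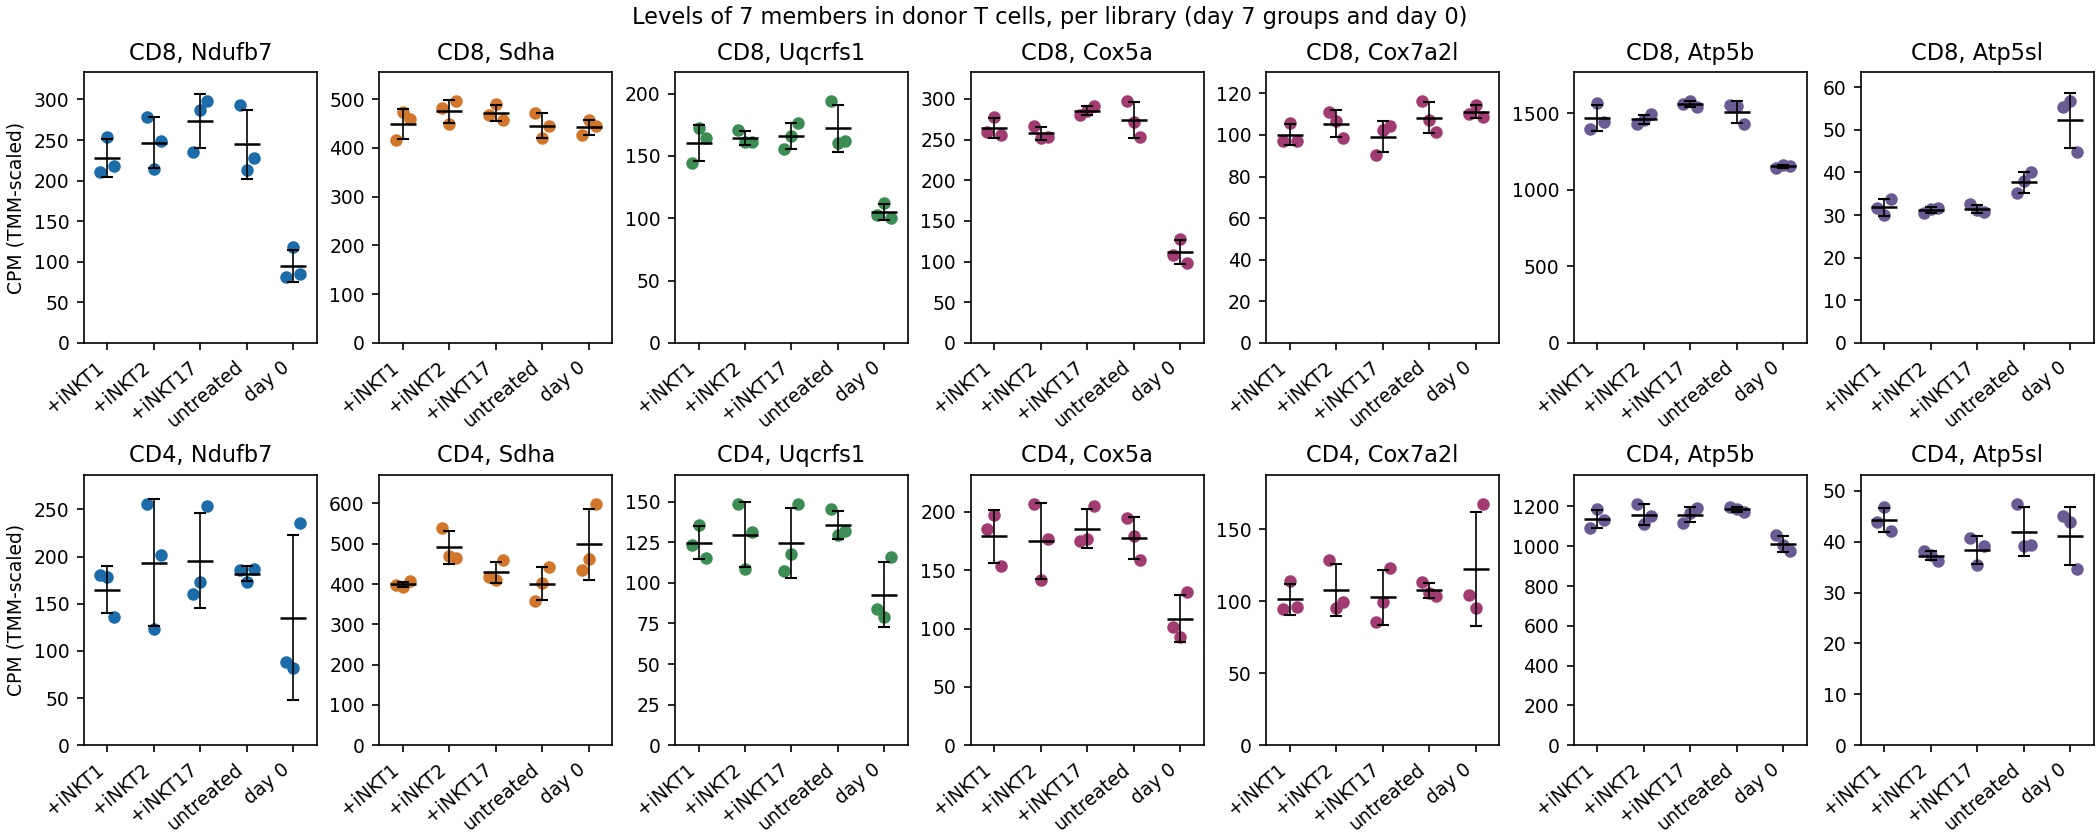
Level in CPM of 7 members (columns) in CD8 (top) and CD4 (bottom) donor T cells, one point per library, for the 4 day 7 groups and day 0, with mean and SD (n = 3). In CD8, Ndufb7 and Cox5a separate day 7 from day 0, Sdha and Cox7a2l overlap, and Atp5sl lies higher at day 0. In CD4, Atp5sl overlaps between the days, and 1 day 0 library stands near 236 CPM for Ndufb7.

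Of the 2 lower CD4 members, Cox6a2, the complex IV isoform of heart and skeletal muscle, had 1 count in all untreated day 7 libraries and 95 counts at day 0, a ratio of 0.0117 (exact 95% interval 0.000293 to 0.0667, counting error only). Its level was 0, 0 and 0.0357 CPM in untreated cells and 0.395, 0.513 and 2.09 CPM at day 0. The groups did not overlap, and the log2 fold change was -6.08 (SE 1.14, adjusted p = 0.000856), or -4.95 without the third day 0 library (SE 1.1, adjusted p = 0.00336). Siglech, a marker of plasmacytoid dendritic cells, had 0.18, 0.42 and 0.07 CPM in untreated cells and 6.66, 5.62 and 22.6 CPM at day 0, with the same day 0 library highest, and its part was not tested. The muscle list did not fall, with 1.32 to 2.75 CPM in untreated cells and 0.656 to 1.14 CPM at day 0. Atp5s had 6.08, 3.76 and 5.14 CPM in untreated cells and 6.52, 7.64 and 13.5 CPM at day 0, a log2 fold change of -0.88 (SE 0.32, adjusted p = 0.0477). Without the third day 0 library it did not pass the test, at -0.49 (SE 0.31, adjusted p = 0.217).

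The lists beside the members gave few calls in CD4 cells with all 3 day 0 libraries. Of 77 mitochondrial ribosomal proteins 5 rose and 5 fell (median -0.18), and of 46 assembly factors 1 rose and 8 fell (median -0.15), beside 17.4% of all genes higher and 18.2% lower. Cox4i1 rose by 0.62 (SE 0.14, adjusted p = 0.00407), Ppargc1b fell by 1.40 on the log2 scale (SE 0.22, adjusted p = 0.000213), and mt-Nd2 fell by 1.23 (SE 0.28, adjusted p = 0.0038), the 1 of 13 subunits encoded in mitochondrial DNA that passed the test. The counts changed without day 0 library 3, a setting added for these lists after seeing the data. Of the mitochondrial ribosomal proteins 18 then rose and 3 fell (median 0.23), and of the assembly factors 6 rose and 4 fell (median 0.13), beside 20.5% of all genes higher and 19.3% lower. Cox4i1 was then at 0.68 (adjusted p = 0.00348), Ppargc1b at -1.59 (adjusted p = 3.09e-05) and mt-Nd2 at -1.35 (adjusted p = 0.0027).

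The difference between the lineages was tested directly, as the day 7 change in CD8 minus that in CD4 over the 12 untreated and day 0 libraries within a fit of all 30. Of 79 members 5 had a larger change in CD8 and 1 a smaller one, beside 4.49% of all 15601 genes larger and 4.29% smaller. The median difference was 0.64 over the members and -0.01 over all genes, and 77 of the 79 differences were positive. The larger ones were Ndufa4 (0.94, SE 0.29, adjusted p = 0.0419), Ndufs5, an accessory subunit of complex I (0.81, SE 0.25, adjusted p = 0.0411), Cox6b1 (0.80, SE 0.23, adjusted p = 0.0319), Cox7b, a small complex IV subunit (0.65, SE 0.20, adjusted p = 0.0392), and Atp5j (0.99, SE 0.31, adjusted p = 0.042). Atp5sl had the smaller one (-0.52, SE 0.16, adjusted p = 0.0352). Atp5sl in CD4 cells stood at 47.5, 39.2 and 39.3 CPM at day 7 and 45.0, 43.9 and 34.6 CPM at day 0, with overlap. These calls rested on single libraries. Without CD4 day 0 library 3 none of the 79 was called by edgeR's quasi-likelihood test, beside 2.81% of all genes called larger. The median difference was then 0.25 over the members. At an unadjusted p under 0.05 there were 12 members. The share of all genes at that threshold is not given, so nothing is read from that count. Calls numbered 16 without CD4 day 0 library 1, 35 without CD4 day 0 library 2, 0 without CD8 day 0 library 1, 1 without CD8 day 0 library 3, 0 without CD8 untreated library 1, 3 without CD8 untreated library 2, and 1 without CD4 untreated library 2 or library 3.

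Treatment with iNKT cells left the nuclear-encoded members without a call. In CD4 cells 0 of 79 members passed the test in each of the 6 comparisons among iNKT1, iNKT2, iNKT17 and no treatment, as did 0% of all genes, and at an unadjusted p under 0.05 there were 0 to 1 members. In CD8 cells 0 of 78 members passed it with iNKT1, iNKT2 or iNKT17 over no treatment. Of all genes 0.158%, 0.110% and 0.206% did, in that order. At an unadjusted p under 0.05 there were 5, 6 and 4 members. Between the treatments in CD8 cells 0 members and 0% of all genes passed it, with 2 to 4 members at an unadjusted p under 0.05. DESeq2 called 1 member, lower with iNKT17 than without treatment in CD8 cells. Shares of all genes at an unadjusted p under 0.05 or by DESeq2 are not given, so nothing is read from those counts. Median log2 fold changes over the members lay between -0.06 and 0.10 in all 12 comparisons. Subunits encoded in mitochondrial DNA are not members. In CD8 cells they summed to 4483 to 6119 CPM with iNKT1, 3049 to 4092 CPM with iNKT2 and 2716 to 4038 CPM with iNKT17. Untreated CD8 libraries had 4095 to 6634 CPM. In CD4 cells the sums were 3642 to 5553, 2462 to 4291 and 2645 to 3979 CPM, in that order. Untreated CD4 libraries had 3450 to 5650 CPM, with overlap. These sums were not tested.

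In each treated group of CD8 cells the sum over all members stayed near that of untreated day 7 cells. It averaged 14185 ± 796 CPM with iNKT1, 14350 ± 579 CPM with iNKT2 and 15151 ± 857 CPM with iNKT17, against 14791 ± 1428 CPM without treatment (SD, n = 3 each). Atp5g2 had the smallest p with iNKT17, at 25.1, 24.8 and 23.3 CPM against 36.3, 36.5 and 31.6 CPM without treatment, a log2 fold change of -0.51 (SE 0.15, adjusted p = 0.131 by edgeR). The groups did not overlap, yet the difference did not pass the adjusted threshold. Atp5sl was lower in every treated CD8 library, with 31.7, 29.9 and 33.7 CPM with iNKT1, 30.5, 31.5 and 31.7 CPM with iNKT2 and 32.5, 31.3 and 30.7 CPM with iNKT17, against 35.2, 37.9 and 40.04 CPM without treatment. Its adjusted p was 0.341 with iNKT1, 0.275 with iNKT2 and 0.282 with iNKT17, so these differences failed the correction. In CD4 cells the spread within treated groups was wider. Summed complex I reached 4635 CPM in 1 of 3 libraries with iNKT2, against 2869 and 3711 CPM in the others, and 4366 CPM in 1 of 3 with iNKT17, against 3084 and 3344 CPM in the others. Cd4 was lowest of its group in both these libraries, as in CD4 day 0 library 3. It stood at 746.0 CPM with iNKT2, against 1279 and 861.4 CPM in the others. With iNKT17 it stood at 861.6 CPM, against 1217 and 1264 CPM. Its link to the sums was not tested. Over all members the CD4 sums averaged 10984 ± 702 CPM with iNKT1, 11833 ± 2153 CPM with iNKT2 and 11595 ± 1579 CPM with iNKT17, against 11453 ± 439.8 CPM without treatment (SD, n = 3 each).

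In the thymic sublineages the summed members were higher in iNKT2 than in iNKT1 cells. All members together stood at 7694 and 8036 CPM in iNKT2 and at 5783 and 5924 CPM in iNKT1, a log2 ratio of 0.43. With 2 libraries per group no exact test of a sum can pass 0.05, and the difference is given as a value. Complex V stood at 2914 and 3092 CPM in iNKT2 and at 2238 and 2178 CPM in iNKT1. Complex IV stood at 1011 and 1096 CPM in iNKT2 and at 748 and 737 CPM in iNKT1. Complexes I and III did not overlap either, and complex II barely separated, with 617 and 519 CPM in iNKT2 and 467 and 516 CPM in iNKT1. iNKT17 libraries lay apart from one another, at 7485 and 6269 CPM over all members, between the iNKT2 and the iNKT1 libraries. Subunits encoded in mitochondrial DNA summed to 24190 to 29700 CPM in iNKT2 and 19450 to 20530 CPM in iNKT1, and cytosolic ribosomal proteins to 35280 to 36740 CPM in iNKT2 and 23760 to 24570 CPM in iNKT1. Their part in the members' sums was not tested.

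**Figure D4:**
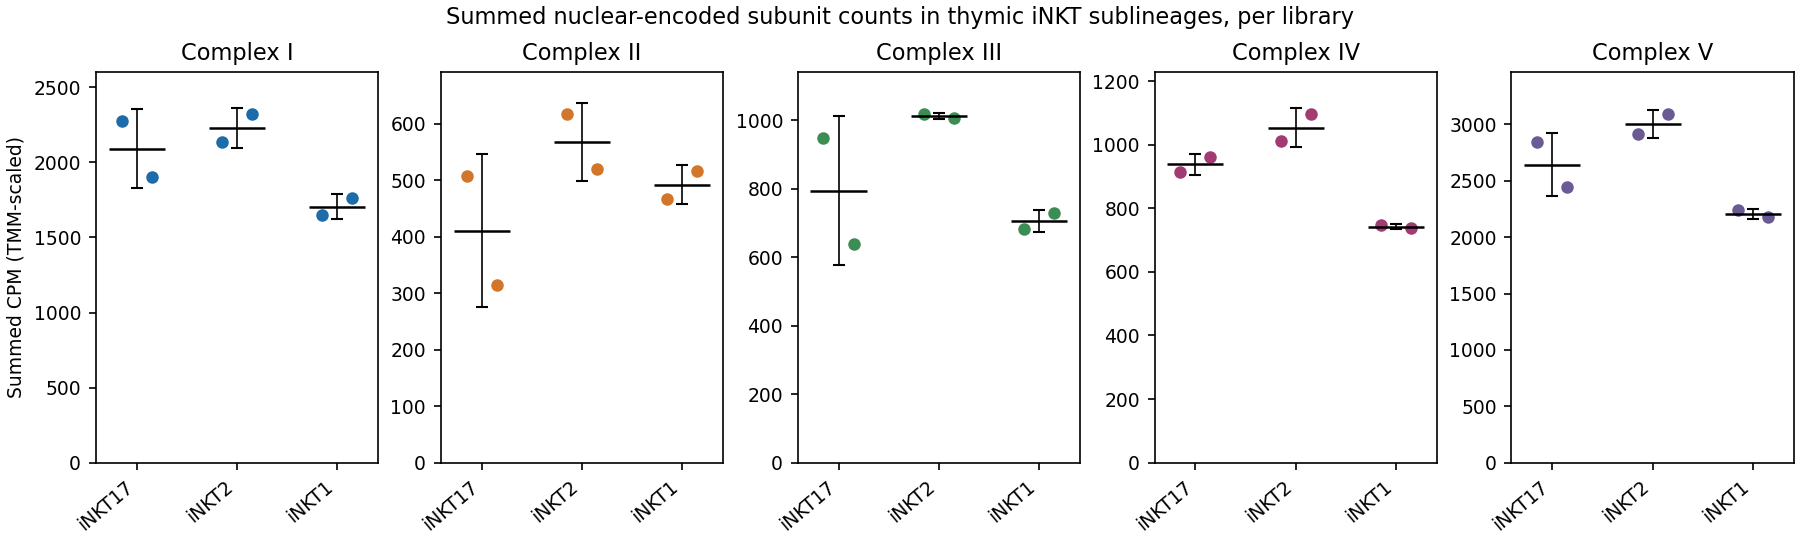
Summed CPM of the members of each complex in thymic iNKT17, iNKT2 and iNKT1 libraries, one point per library, with mean and SD (n = 2). The iNKT2 points lie above both iNKT1 points in each complex, by the least in complex II, and the iNKT17 points of complex III are 947 and 639 CPM.

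Single members could not be separated between sublineages at the spread of these libraries. Of 76 tested, 0 passed the test in iNKT2 over iNKT1, in iNKT17 over iNKT1 and in iNKT17 over iNKT2, beside 1.29%, 2.00% and 0.711% of all 12372 genes, by edgeR's quasi-likelihood test. At an unadjusted p under 0.05 there were 3, 7 and 4 members, and DESeq2 called 2, 8 and 3. Shares of all genes at that threshold or by DESeq2 are not given, so nothing is read from those counts. Median log2 fold changes of the members were 0.58 in iNKT2 over iNKT1, 0.23 in iNKT17 over iNKT1 and -0.29 in iNKT17 over iNKT2, beside 0.09, -0.03 and -0.09 over all genes, and 63, 42 and 28 members were positive. Cox6b1 came closest, with 162 and 217 CPM in iNKT17, 96.6 and 141 CPM in iNKT2, and 65.0 and 49.7 CPM in iNKT1. Its log2 fold change was 1.72 in iNKT17 over iNKT1 (SE 0.44, adjusted p = 0.109). Ndufv3, a small subunit at the NADH site, had 134 and 90.6 CPM in iNKT17 and 31.97 and 21.7 CPM in iNKT1, a log2 fold change of 2.07 (SE 0.61, adjusted p = 0.191). Both were higher in each iNKT17 library than in each iNKT1 library without passing the adjusted threshold. Atp5e, the epsilon subunit of complex V, had 143 and 176 CPM in iNKT2 and 58.2 and 21.1 CPM in iNKT1, a log2 fold change of 2.01 (SE 0.64, adjusted p = 0.305).

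Replicates of 1 sublineage could differ by more than the sublineages. Ndufv1 had 83.7 and 14.2 CPM in the iNKT1 libraries, Atp5sl 61.1 and 2.40 CPM in the iNKT17 libraries, and Uqcr10 36.3 and 3.32 CPM in the iNKT1 libraries. Members not tested for low counts were Ndufa4l2, Ndufs5, Cox6a2, Cox7a1, Cox7b2, Cox8b and Cox8c. Ndufs5 was at 0 in 4 of the 6 bulk libraries, at 0.0339 CPM in 1 and at 11.2 CPM in 1, yet single thymic iNKT cells held it at 117.5 and 147.7 CPM of their UMIs (unique molecules) in the 2 mice, so its level in the bulk iNKT table was not read.

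Chromatin at the members was measured as counts in 127 ATAC regions at 79 members, of which 83 lay within 1000 bases of a listed start. In iNKT2 over iNKT1, 7 of the 127 regions were more open and 32 less open, beside 22.3% of all 54520 regions more open and 16.3% less open. Of the 83 regions near starts 23 were less open (27.7%), close to the 25.2% of all 13860 regions near starts. The median was -0.37 over the members' regions near starts and -0.29 over all regions near starts. In iNKT17 over iNKT1, 5 regions were more open and 15 less open, beside 23.5% and 13.6% of all regions, and 10 of 83 near starts were less open (12%), beside 15.9% of all regions near starts. In iNKT17 over iNKT2, 2 regions passed the test, both more open, beside 5.11% of all regions more open and 3.24% less open, and no member region near a start was called less open, beside 1.11% of all regions near starts. The count of 39 regions in iNKT2 over iNKT1 became 23 without iNKT1 library 1, 9 without iNKT1 library 2 and 13 without iNKT2 library 1. The count of 20 in iNKT17 over iNKT1 became 10 without iNKT1 library 1, 9 without iNKT1 library 2 and 11 without iNKT17 library 1. The count of 2 in iNKT17 over iNKT2 became 0 without iNKT2 library 1, iNKT2 library 2 or iNKT17 library 2. Without iNKT17 library 1 it became 1. With the replicate number as a block, more regions were called in each comparison, as given below.

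Some regions at starts were less open outside iNKT1. The region at the start of Ndufa4 (chr6:11907191-11908112) had 28.5 and 35.9 CPM in iNKT2 and 78.4 and 119.5 CPM in iNKT1, a log2 fold change of -1.62 (SE 0.28, adjusted p = 0.00238). The region at the start of Sdha (chr13:74349700-74350626) had 29.5 and 35.7 CPM in iNKT2 and 52.0 and 71.0 CPM in iNKT1, a log2 fold change of -0.92 (SE 0.22, adjusted p = 0.0108). At both, each iNKT2 library lay below each iNKT1 library. The RNA of Ndufa4, at 91.3 and 139 CPM in iNKT2 and 119 and 190 CPM in iNKT1, overlapped, and that of Sdha, at 172 and 207 CPM in iNKT2 and 273 and 298.5 CPM in iNKT1, did not overlap but failed the test. At Cox5a the region at the start (chr9:57521046-57521677) was less open in iNKT2 than in iNKT1 (-0.79, SE 0.20, adjusted p = 0.0132), while its RNA had 137 and 117 CPM in iNKT2 and 55.8 and 61.6 CPM in iNKT1, the opposite order.

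Other regions were more open outside iNKT1. At the start of Cox7a1 (chr7:30183879-30184425) the counts were 43.5 and 43.2 CPM in iNKT17, 25.5 and 25.8 CPM in iNKT2, and 14.04 and 13.2 CPM in iNKT1. The 3 sublineages did not overlap, and the log2 fold changes were 1.67 in iNKT17 over iNKT1 (SE 0.19, adjusted p = 0.000234), 0.91 in iNKT2 over iNKT1 (SE 0.19, adjusted p = 0.0051) and 0.76 in iNKT17 over iNKT2 (SE 0.18, adjusted p = 0.0368). Cox7a1 RNA was at 0 in all 6 bulk iNKT libraries, and the single cells held 0 UMIs in 1 mouse and 5 in the other. A region 9846 bases from the start of Ndufa7 (chr17:33834491-33835228) had 27.2 and 28.5 CPM in iNKT17, 19.6 and 23.1 CPM in iNKT2, and 2.39 and 1.495 CPM in iNKT1. The log2 fold change was 3.82 in iNKT17 over iNKT1 (SE 0.29, adjusted p = 6.73e-05) and 3.44 in iNKT2 over iNKT1 (SE 0.29, adjusted p = 0.000219). A smaller region nearby, 11807 bases from the same start (chr17:33836452-33836601), had 4.76 and 7.17 CPM in iNKT17, 1.79 and 1.97 CPM in iNKT2, and 0.170 and 0.220 CPM in iNKT1. Its log2 fold changes were 4.94 in iNKT17 over iNKT1 (SE 0.47, adjusted p = 0.000121), 3.27 in iNKT2 over iNKT1 (SE 0.48, adjusted p = 0.00113) and 1.67 in iNKT17 over iNKT2 (SE 0.39, adjusted p = 0.0318). The region at the Ndufa7 start itself (chr17:33824394-33824959) had 41.7 and 33.9 CPM in iNKT17, 46.9 and 39.6 CPM in iNKT2, and 43.4 and 32.4 CPM in iNKT1, with overlap. Which gene the distant regions act on was not tested.

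**Figure D5:**
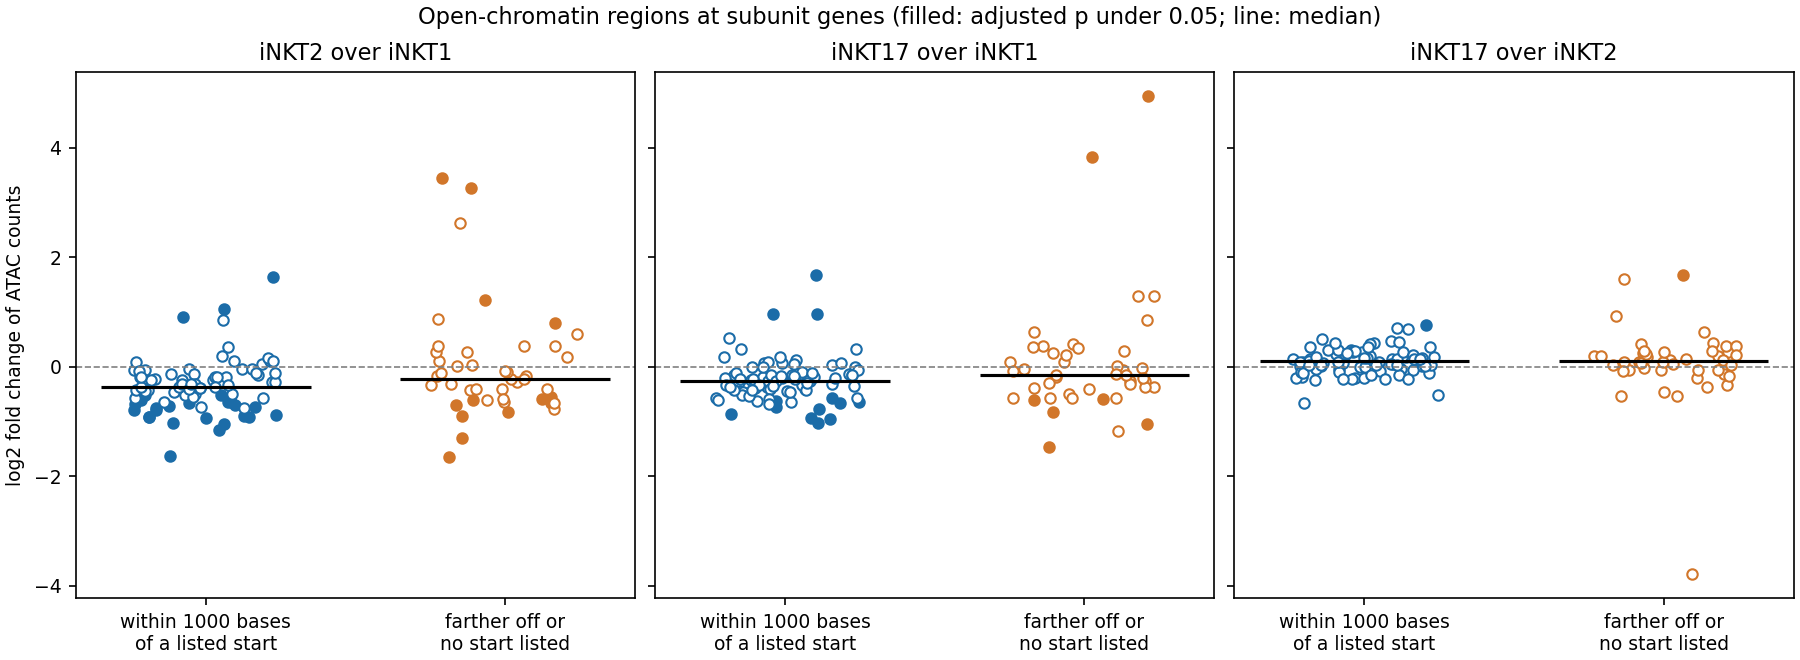
Log2 fold change of ATAC counts in each of the 127 regions at members, for the 3 pairs of sublineages, split by distance from a listed start, with filled points past the adjusted p threshold of 0.05 and the median as a line. Most called regions near starts lie below 0 over iNKT1, and the highest point over iNKT1, at 3.44 for iNKT2 and at 4.94 for iNKT17, is a region away from the start of Ndufa7.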

How the data were processed

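Deposited counts were used as the authors made them: reads per gene for bulk RNA, reads per region for ATAC, and UMIs per gene and barcode for single cells. TruSeq stranded mRNA kits made the iNKT RNA libraries, per the labels' protocols, SMARTer v4 with Nextera XT the donor T cell libraries, and Chromium 3′ v2 the single-cell libraries. The submitters' processing notes list STAR 2.5.4, kallisto, Bowtie2, MACS2 and Cell Ranger 2.1 with no roles, and strand use in counting is not given in the sources used here, so reads of overlapping or near-identical genes could be shared.

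Column names gave the groups. The 3 CD8 day 0 columns share a header and were numbered in column order. Sample titles name 2 experiments, which the columns do not carry. Tests used edgeR 4.0.16 under R 4.3.3 (quasi-likelihood test, filterByExpr, trimmed-mean scaling, Benjamini-Hochberg adjustment over all genes), with CD4 and CD8 fitted separately and each with all 5 groups, the lineage difference over 30 libraries, and 6 libraries each for iNKT RNA and ATAC. DESeq2 1.42.0, other scalings, no filter, fits of the compared groups alone and leaving out each library were alternatives. CPM values use the trimmed-mean factors. Levels of different genes were not compared, since gene lengths were not used. Single cells needed at least 500 genes and 1000 UMIs and at most 10% mitochondrial UMIs, doublets were not removed, and cells were summed per mouse. ATAC regions were tied to a member when within 1000 bases of its span in RefSeq on GRCm38.p6, the build mm10 of the regions, per the submitters' processing notes. No 2 libraries were identical. The fits were checked on simulated data. For iNKT RNA the simulated spread was capped below that of the libraries. The check therefore does not cover the iNKT RNA fit at its own spread.

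Members, lists and tests were chosen with earlier results of these data known. Genes named were fixed core subunits, per comparison and complex the called members that rose or fell most, called members against the common direction, and members with too few counts. Sdhc, Cox6b1 and Atp5c1 in CD8 or CD4 cells, Ndufv3, Cox6b1 and Atp5e in iNKT cells, and the replicate examples were named after their values were seen. The iNKT1 CD4-positive and CD4-negative RNA libraries were not analysed here. Values of 1 member are not reported here.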

Additional observations from a re-analysis of the deposited data

Results flagged for a closer look

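For 6 members the day 7 change differed between the lineages by the direct test of the difference (edgeR's quasi-likelihood test, adjusted p under 0.05). The change was larger in CD8 for 6.33% of the 79 tested members and smaller for 1.27%. Over all 15601 genes these shares were 4.49% and 4.29%. The log2 change in CD8 minus that in CD4 was 0.992 for Atp5j, 0.943 for Ndufa4, 0.805 for Ndufs5, 0.796 for Cox6b1 and 0.65 for Cox7b, and -0.524 for Atp5sl. Without CD4 day 0 library 3 none of the 6 passed the test, with values of 0.51 for Atp5j, 0.53 for Ndufa4, 0.58 for Ndufs5, 0.54 for Cox6b1, 0.49 for Cox7b and -0.41 for Atp5sl.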

How the results depend on the processing

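In CD8 cells 64 to 70 members were called in the day 7 comparison when each library was left out, against 68 with all. Counts of members called with other settings were as follows. In CD4 day 7 over day 0 there were 4 when only the compared groups were fitted and 6 to 37 when each library was left out, against 12. For the difference between lineages there were 3 with no filter, 18 with DESeq2, 0 with the compared groups alone and 0 to 35 when each library was left out, against 6. For CD8 with iNKT17 over untreated DESeq2 called 1, against 0. In iNKT2 over iNKT1 there was 1 with no filter, 2 with DESeq2 and 0 to 1 when each library was left out, against 0. In iNKT17 over iNKT1 there was 1 with no filter, 8 with DESeq2 and 0 to 4 when each library was left out, against 0. In iNKT17 over iNKT2 there were 3 with DESeq2 and 0 to 4 when each library was left out, against 0. Shares of all genes under these settings are not given here, so the counts show only how far the calls depend on the processing. The cause was not tested, except that leaving out libraries or groups lowers the number of samples.

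Of ATAC regions at members, iNKT2 over iNKT1 had 67 with the replicate number as a block and 9 to 28 when each library was left out, against 39. In iNKT17 over iNKT1 there were 59 with the replicate block, 41 with DESeq2, 13 near starts alone and 9 to 16 when each library was left out, against 20. In iNKT17 over iNKT2 there were 10 with the replicate block, 1 with the compared groups alone, 1 near starts alone and 0 to 1 when each library was left out, against 2. The labels share only numbers, 2 in each group. Deviations of equal numbers correlated by 0.671, 0.526 and 0.528 in ATAC and by -0.0588, 0.0496 and -0.0241 in iNKT RNA, where the block gave 0 calls in all 3 comparisons. No paired analysis was possible in donor T cells because the columns do not carry the labels' experiments.

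The log2 ratio of summed CPM in CD8 day 7 over day 0 with totals of the library, and with totals without mitochondrially encoded genes, was 0.317 and 0.314 for complex II (main 0.514), 0.458 and 0.455 for complex V (main 0.655) and 0.513 and 0.51 for all members (main 0.71). For iNKT2 over iNKT1 it was 0.483 without mitochondrially encoded genes (main 0.426). With each library left out it lay between 0.632 and 0.782 in CD8, 0.0625 and 0.452 in CD4, 0.394 and 0.457 in iNKT2 over iNKT1, 0.099 and 0.355 in iNKT17 over iNKT1, and -0.327 and -0.071 in iNKT17 over iNKT2. The log2 ratio of summed complex II in CD4 day 7 over day 0 turned negative, at -0.0511 with totals of the library and -0.0532 with totals without mitochondrially encoded genes (main 0.0607). Library totals without scaling factors, sums with a library left out, and lists without CD4 day 0 library 3 were chosen after seeing the data.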

Other observations

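Single cells were used in no comparison. After filtering, 138 cells (median 5310 UMIs) remained in 1 thymus and 144 (median 5818 UMIs) in the other, and the 2 libraries shared 0 barcodes. Complex I members summed to 5418 CPM of UMIs in the first (exact Poisson 95% interval 5260 to 5579) and 5624 in the second (5470 to 5782), with intervals that cover counting error only. Complex II summed to 253.1 (219.9 to 289.8) and 255.1 (223.1 to 290.5), complex III to 1886 (1793 to 1982) and 1929 (1839 to 2023), complex IV to 4521 (4377 to 4668) and 4608 (4469 to 4751), and complex V to 5371 (5214 to 5531) and 5480 (5328 to 5636). The intervals of the 2 mice overlapped for each complex. Cox6a2, Cox7b2, Cox8b, Cox8c and Ndufa4l2 had 0 UMIs in both.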
